A study of Saccharomyces cerevisiae with 24 samples.

Results

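Ribosome footprints were set against mRNA, gene by gene, in unstressed budding yeast without ZUO1, called zuo1Δ here. The comparison used 4 of 24 libraries, 2 of footprints and 2 of poly(A) mRNA. Of 5211 genes in the deposited table, 5157 were above 0 in all zuo1Δ libraries, and 4709 of these had a mean of at least 10 CPM over the 4 libraries and were ranked, which left 448 unranked. CPM gives a gene as a share of its library, the read count over the library total times its TMM factor. The ratio of a gene is its mean log2 CPM in footprints minus its mean log2 CPM in mRNA, so a positive ratio means a larger share of the footprints than of the mRNA. The ratio itself chose the genes with the highest and lowest values, so these are described without a test in zuo1Δ and tested only in wild type. List members named by size, or after their values were seen, were also picked by this ratio. Their zuo1Δ p-values only restate the calls over all genes tested and are no independent support.

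Both genotypes are on the BY4741 background, and wild type differs from zuo1Δ by carrying ZUO1. All 8 unstressed libraries came from cells grown at 30 °C in synthetic complete medium with 2% glucose to an OD600 of 0.6. The other libraries hold cells of the same strains given 0.25 mM H2O2 for 30 min or held at 37 °C for 45 min. Each of the 12 groups had 2 biological replicates, grown from single colonies. The labels do not say whether zuo1Δ is 1 clone or how far the replicates were separate cultures, so p-values measure only the spread between these libraries.

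A ribosome shields a short piece of the mRNA it is reading, and sequencing these pieces counts ribosomes by gene. Divided by the mRNA, footprints give the ribosome load per message, which is set by how often ribosomes start on a message and how long they stay there. Zuo1 is a J-domain protein that forms the ribosome-associated complex with Ssz1 and brings the Hsp70 Ssb to chains leaving the ribosome. Both assays give shares of a library, so a ratio of 0 is the typical gene and not a fixed number of ribosomes.

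The zuo1Δ footprint libraries held 12911338 and 5848548 counts and the zuo1Δ mRNA libraries 37299227 and 31185480, against 1686930.0 and 1788399 footprint counts and 122213415 and 110894606 mRNA counts in wild type. ZUO1 (YGR285C) was at 0 in all 4 zuo1Δ libraries, against 1281 and 1269 CPM in wild-type footprints and 735 and 459 CPM in wild-type mRNA. All 6 a-cell genes of the marker list were present, as BY4741 is a MATa strain. STE2, the alpha-factor receptor, stood at 473 and 564 CPM in zuo1Δ footprints and 955 and 861 CPM in zuo1Δ mRNA. The alpha-cell receptor gene STE3 was at 1.41 to 3.24 CPM in the same libraries. Replicates differed more in mRNA than in footprints, with an SD of the log2 difference across ranked genes of 0.433 in footprints and 0.854 in mRNA. The 50 highest genes took 30.5% and 30.2% of the zuo1Δ footprint counts and 33.0% and 23.4% of the zuo1Δ mRNA counts, against 56.6% and 48.4% of the wild-type mRNA counts.

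Most genes in zuo1Δ had a ratio near 0, with a long tail on each side. The quartiles of the ratios lay at -0.81 and 0.68 around a median of -0.06, and 2941 of 4709 genes (62.5%) were within 2-fold. The ratio was over 4-fold in favour of footprints for 243 genes and over 4-fold in favour of mRNA for 268. The extremes were RPL39 at 7.14 and HAC1 at -7.86. For 3242 genes (68.8%) the 2 footprint values and the 2 mRNA values did not overlap. The edgeR quasi-likelihood test over 5070 genes above 0 in both genotypes called 1056 genes higher in footprints (20.8%) and 1233 lower (24.3%) at an adjusted p under 0.05. These shares are the background for the counts below that use all libraries. With a library left out the background was 14.4% higher and 16.3% lower without mRNA replicate 1, 22.5% and 25.7% without mRNA replicate 2, 15.2% and 17.9% without footprint replicate 1, and 16.2% and 16.02% without footprint replicate 2. The left-out counts below are to be read against these. A fit of the 4 libraries alone called 1255 genes in all, against 2289 in the fit of all 24.

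**Figure D1:**
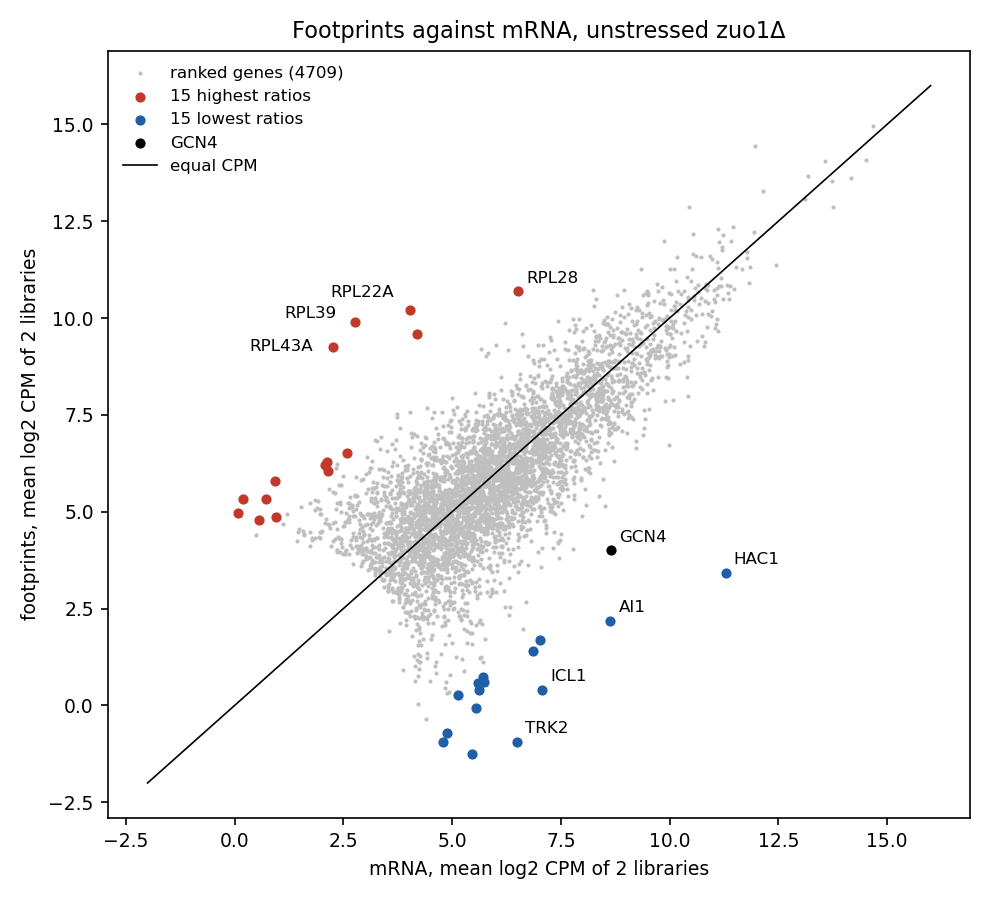
Mean log2 CPM in footprints (vertical) against mRNA (horizontal) in unstressed zuo1Δ, 2 libraries per assay, for 4709 ranked genes, with the 15 highest and 15 lowest ratios and GCN4 marked. The line marks equal CPM. HAC1 lies farthest below it at a ratio of -7.86, and RPL39 farthest above it at 7.14.

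The lowest ratio in zuo1Δ belonged to HAC1 (YFL031W, chromosome VI, 75179 to 76147), the transcription factor of the unfolded protein response. HAC1 had 10.5 and 11.1 CPM in footprints and 3788 and 1646 CPM in mRNA. Both mRNA values were thus far above both footprint values, and the ratio was -7.86 ± 0.60 (SE, n = 2 per assay), a 232-fold excess of mRNA. HAC1 mRNA keeps an intron that holds its translation back until Ire1 removes it under stress in the endoplasmic reticulum. In wild type HAC1 had 14.2 and 11.4 CPM in footprints and 7264 and 3056 CPM in mRNA, a fitted ratio of -8.66 ± 0.72 (adjusted p = 1.28e-07, edgeR). IRE1 itself, the kinase and endonuclease, had 28.7 and 29.1 CPM in zuo1Δ footprints and 59.5 and 113 CPM in zuo1Δ mRNA, a fitted ratio of -1.58 ± 0.36 (adjusted p = 0.00156, edgeR).

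GCN4 (YEL009C, chromosome V, 138918 to 139763), the activator of amino acid biosynthesis genes, ranked eighteenth from the bottom. Its upstream reading frames are the textbook case of translation held back in fed cells. It had 12.02 and 21.7 CPM in zuo1Δ footprints and 260 and 625 CPM in zuo1Δ mRNA, and the assays did not overlap. The ratio was -4.64 ± 0.76 (SE, n = 2 per assay). Wild type gave 22.6 and 39.1 CPM in footprints and 492 and 996 CPM in mRNA, a fitted ratio of -4.59 ± 0.65 (adjusted p = 1.39e-05, edgeR). The difference between genotypes for GCN4 was -0.14 ± 0.80 (SE; adjusted p = 0.945, edgeR), an SE too wide to show that the genotypes are alike.

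The other 14 of the 15 lowest ratios in zuo1Δ lay between -7.42 and -4.87, and footprints were below mRNA in both replicates of each. ICL1, the isocitrate lyase of the glyoxylate cycle, had 1.27 and 1.39 CPM in footprints and 236 and 76.1 CPM in mRNA. The glucan synthase homologue FKS3 had 1.20 and 0.771 CPM in footprints and 54.1 and 40.5 CPM in mRNA. GDH3, a glutamate dehydrogenase, had 1.70 and 1.39 CPM in footprints and 106 and 26.7 CPM in mRNA. In ICL1 and GDH3 the footprint replicates lay closer together than the mRNA replicates, and in FKS3 the mRNA replicates lay closer. CSS1 was steady in both assays, at 2.90 and 3.55 CPM in footprints and 118 and 144 CPM in mRNA. BRE4 had 5.09 and 1.39 CPM in footprints and 115 and 116 CPM in mRNA, and there the footprints carried the spread. Membrane transporters made up several more. The potassium transporter gene TRK2 had 1.77 and 0.154 CPM in footprints and 97.0 and 82.8 CPM in mRNA, the ABC transporter gene PDR18 had 0.354 and 0.771 CPM against 28.2 and 27.2 CPM, and the fluoride exporter gene FEX2 had 1.63 and 1.08 CPM against 105 and 22.8 CPM. FEX2 has a near-identical copy, FEX1, and is uncertain for that reason. YHK8, of a drug transporter family, had 0.636 and 3.55 CPM in footprints and 66.7 and 35.4 CPM in mRNA. The meiotic activator NDT80, the mitochondrial growth gene MBR1, the amidase homologue AMD2, the retrotransposon Gag gene YDR170W-A and the mitochondrially encoded AI1 completed the set. YDR170W-A belongs to a repeated family and AI1 overlaps COX1, so both are uncertain. The last gene inside was AMD2 at -4.87 and the first outside was the drug transporter gene QDR1 at -4.74.

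Some of these footprint values rest on very few reads. TRK2 had 25 footprint counts in replicate 1 and 1 in replicate 2. With exact 95% Poisson intervals, which cover counting error only, its ratio lay between -6.29 and -5.10 from replicate 1 and between -14.49 and -6.71 from replicate 2, so the replicates differed by more than counting error. MBR1 and YDR170W-A had 2 footprint counts each in replicate 2, for ratios of -9.62 to -4.72 and -10.20 to -5.31 in that library. The upper bound nearest 0 among the 15 genes was -3.19, for replicate 2 of YHK8. Of the 15 lowest genes, 8 were listed at 0 in all 12 wild-type libraries (TRK2, YDR170W-A, ICL1, AI1, PDR18, MBR1, NDT80 and AMD2). So were 22 of the 100 lowest, against 31 of the 4709 ranked genes (0.658%), and no fold between genotypes is given for them. Whether a filter on low footprint reads set these genes to 0 in the deposited counts was not tested.

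**Figure D2:**
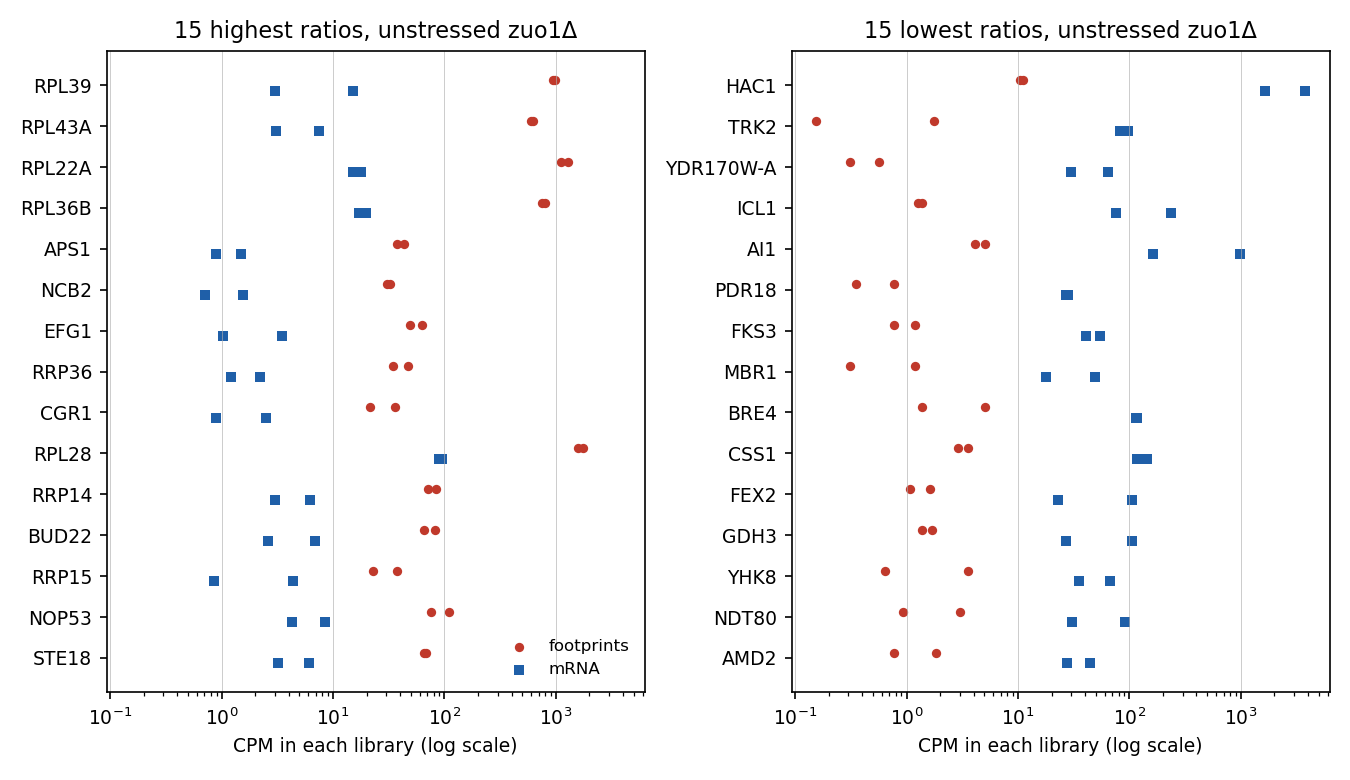
CPM in each library (log scale) of the 15 highest (left) and 15 lowest (right) ratios in unstressed zuo1Δ, with circles for the 2 footprint libraries and squares for the 2 mRNA libraries. The assays do not overlap for any of the 30 genes, and the spread between mRNA squares is widest for AI1, at 162 and 982 CPM.

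At the other end, the 15 highest ratios lay between 3.92 and 7.14, and 2 kinds of gene filled most of the places. The first were genes of the large ribosomal subunit. RPL39 (YJL189W, chromosome X, 75933 to 76474), which lines the exit tunnel, had 935 and 979 CPM in footprints and 3.04 and 15.2 CPM in mRNA, a ratio of 7.14 ± 1.16 (SE, n = 2 per assay). RPL43A (YPR043W, chromosome XVI, 654166 to 654847) had 593 and 628 CPM in footprints and 7.49 and 3.05 CPM in mRNA, a ratio of 6.995 ± 0.65. The footprints of both genes were abundant and steady, while their mRNA stayed at or below 15.2 CPM and carried the spread. RPL22A had 1275 and 1104 CPM in footprints and 15.1 and 17.8 CPM in mRNA, RPL36B had 797 and 755 CPM against 19.6 and 17.3 CPM, and RPL28 had 1589 and 1734 CPM against 89.0 and 94.7 CPM. The replicates of these 3 genes lay close together in both assays, with SEs of the ratio of 0.08 to 0.16. RPL43A, RPL22A and RPL36B each have a paired copy, so their own ratios are uncertain. With the counts of both copies summed, RPL43 had 885 and 939 CPM in footprints and 430.2 and 213 CPM in mRNA, a ratio of 1.59. The summed ratio was 5.09 for RPL22 and 3.99 for RPL36. The summed RPL43 ratio was thus far below that of RPL43A alone, and the part of read assignment in this was not tested. RPL39 and RPL28 have no paired symbol.

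The second kind were nucleolar genes that make ribosomes, and their mRNA was low, at 0.855 to 8.48 CPM, beside footprints of 21.3 to 109 CPM. RRP36 had 34.5 and 47.3 CPM in footprints and 1.21 and 2.23 CPM in mRNA, and RRP14 had 71.6 and 83.9 CPM against 3.01 and 6.28 CPM. NOP53, which acts on the pre-60S particle, had 76.1 and 109 CPM in footprints and 4.25 and 8.48 CPM in mRNA. EFG1, CGR1, BUD22 and RRP15, all of ribosomal RNA processing or subunit assembly, had ratios of 4.88, 4.21, 4.12 and 3.93. In each of these 7 genes replicate 2 was the higher in both assays. The rest were APS1, a clathrin adaptor subunit, at 43.3 and 37.1 CPM in footprints and 0.885 and 1.48 CPM in mRNA, the transcriptional repressor gene NCB2 at 30.2 and 32.4 CPM against 1.56 and 0.703 CPM, and STE18, the gamma subunit of the pheromone G protein, at 66.0 and 67.7 CPM against 3.19 and 6.13 CPM. STE18 at 3.92 was the last inside and FYV7, another ribosomal RNA processing gene, at 3.91 the first outside.

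Genes with high ratios were shorter than genes with low ratios. The median span was 832.5 bases for the 100 highest, 1585.5 for the 100 lowest and 1332 for all ranked genes with coordinates. Across 4703 genes the ratio and the span had a Spearman correlation of -0.12. The link was not a straight line, since the median ratio was -0.04 under 500 bases, 0.17 from 500 to 1000 bases, -0.06 from 1000 to 2000, -0.16 from 2000 to 3000 and -0.40 from 3000 upwards. Footprints per kb of the 100 highest had a median of 77.1 CPM, against 40.6 CPM per kb over all ranked genes, and mRNA per kb had a median of 9.02 CPM, against 42.0 CPM per kb. For the 100 lowest the medians per kb were 2.57 CPM in footprints and 33.1 CPM in mRNA. By these medians the 100 highest differed from all ranked genes more in mRNA than in footprints, and the 100 lowest more in footprints. The ratio and the minimum of 10 CPM chose both sets, and an extreme gene passes that minimum through its higher assay. The medians are therefore no test of which assay makes a ratio extreme.

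A span that is not a multiple of 3 cannot be 1 unbroken reading frame, as in many genes with an intron. Of the 15 highest genes 6 (40%) had such a span, namely RPL39, RPL43A, RPL22A, RPL36B, RPL28 and NCB2, against 9% of the 100 highest, 3% of the 100 lowest and 3.13% of all ranked genes. Among the 137 cytosolic ribosomal protein genes, however, the 57 with such a span had a median fitted ratio of 0.47 and the other 80 a median of 0.62. Outside the ribosomal proteins the 90 genes with such a span had a median ratio of -0.11, against -0.08 for 4476 others.

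The machinery that makes ribosomes and proteins leaned to the footprint side in zuo1Δ. Of 102 ribosome biogenesis genes, 59 were higher in footprints and 0 lower, with a median fitted ratio of 1.10 against -0.09 over all genes tested. Leaving out each zuo1Δ library in turn gave 44 to 66 higher. NOP13, a nucleolar RNA-binding protein gene, had a fitted ratio of 3.72 ± 0.40 (adjusted p = 2.88e-06, edgeR). Of 23 subunits of RNA polymerases I and III, which transcribe ribosomal RNA and tRNA genes, 9 were higher and 2 lower, and 0 were lower without either footprint library. Their shared subunit gene RPC19 had 72.3 and 68.7 CPM in footprints and 5.46 and 4.68 CPM in mRNA. The aminoacyl-tRNA synthetases, which charge tRNAs, counted 9 higher and 0 lower of 21. That count became 4 without mRNA replicate 1 and 5 without footprint replicate 2. The seryl-tRNA synthetase gene SES1 had a fitted ratio of 1.58 ± 0.32 (adjusted p = 0.000721, edgeR).

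Cytosolic ribosomal protein genes spread over a wide range of ratios. Of 137 genes, 48 were higher in footprints (35.0%) and 13 lower (9.49%), and the fitted ratios ran from -2.57 to 6.86 around a median of 0.51. Without mRNA replicate 1 the lower genes numbered 7, and without mRNA replicate 2 they numbered 23. The lowest were RPS6B at -2.57 ± 0.32 (adjusted p = 9.77e-06) and RPL1A at -2.40 ± 0.49 (adjusted p = 0.000674, both edgeR). These and the other list members named outside the rule of size were picked after their values were seen. Most ribosomal proteins of yeast are encoded by paired copies, and how reads shared by copies were counted is not given in the sources used here. The 20 genes without a paired symbol had a median of 1.01, with 9 higher and 0 lower, and the 117 with one had a median of 0.46. Summing the counts of the copies, 58 pairs had ratios from -2.10 to 5.09 with a median of 0.38. In mitochondrial ribosomal proteins 28 of 77 were higher and 8 lower, and the lower count was 2 without mRNA replicate 1 and 4 without footprint replicate 2. MRPS12, of the mitochondrial small subunit, had 46.5 and 39.0 CPM in footprints and 688 and 162 CPM in mRNA.

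Translation factors split by gene. Of 41 tested, 16 were higher in footprints and 5 lower, and the higher count was 9 without mRNA replicate 1, 9 without footprint replicate 1 and 10 without footprint replicate 2. The termination factor gene SUP35 stood at 580 and 694 CPM in footprints and 114 and 164 CPM in mRNA, a fitted ratio of 2.20 ± 0.29 (adjusted p = 1.31e-05, edgeR). Of the 5 lower, 4 came from near-identical pairs. TIF1 and TIF2, the copies of eIF4A, had fitted ratios of -3.30 and -2.04, and EFT1 and EFT2, the copies of elongation factor 2, had -2.24 and -2.51. Their values are uncertain for that reason, and the part of read assignment in them was not tested. SUI1, initiation factor 1, was the other at -1.06 ± 0.29 (adjusted p = 0.00567, edgeR).

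Chaperones and the degradation machinery were also more often higher than lower. Of 18 cytosolic Hsp70, Hsp90 and disaggregase genes, 10 were higher and 2 lower with a median of 1.29, and the higher count was 4 without footprint replicate 1. HSP82, the inducible Hsp90, had 1532 and 666 CPM in footprints and 276 and 177 CPM in mRNA, with replicate 1 the higher in each assay. SSA3, a stress-inducible Hsp70, was one of the 2 lower genes, at 2.33 and 2.47 CPM in footprints and 27.5 and 42.1 CPM in mRNA. The list also holds HSP12, a small stress protein gene of none of these kinds, and the cochaperone gene STI1, both among the 10 higher. Among proteasome subunits 12 of 33 were higher and 0 lower, led by RPN8 at a fitted ratio of 2.60 ± 0.43 (adjusted p = 0.000115, edgeR). In ribosome quality control 6 of 17 were higher and 0 lower, and RQC2, which tags stalled chains on the 60S subunit, had 228 and 203 CPM in footprints and 51.3 and 47.4 CPM in mRNA.

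In the list of chaperones at the ribosome, 6 of 11 genes tested were higher in footprints and 0 lower. The higher count fell without mRNA replicate 1 or either footprint library. The median of 0.81 ran from 0.53 to 0.97 with each zuo1Δ library left out. Among the 6 were JJJ1, of 60S subunit maturation, at 2.99 ± 0.38 and SSE1, a general cytosolic exchange factor, at 0.93 ± 0.35. Neither is specific to the ribosome exit. SSZ1, the partner that zuo1Δ cells retain, had 1511 and 1584 CPM in footprints and 762 and 597 CPM in mRNA, a fitted ratio of 1.19 ± 0.31 (adjusted p = 0.00476, edgeR). EGD2, the alpha subunit of the nascent chain-associated complex, had 814 and 589 CPM in footprints and 123 and 196 CPM in mRNA. SSB1 and SSB2, near-identical Hsp70 genes and therefore uncertain, did not pass in zuo1Δ. SSB1 had 1848 and 1786 CPM in footprints and 3059 and 1755 CPM in mRNA, with overlapping assays. SSB2 had 1490 and 1404 CPM in footprints and 3205 and 2139 CPM in mRNA, a fitted ratio of -0.88 ± 0.40 (adjusted p = 0.0786, edgeR).

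**Figure D3:**
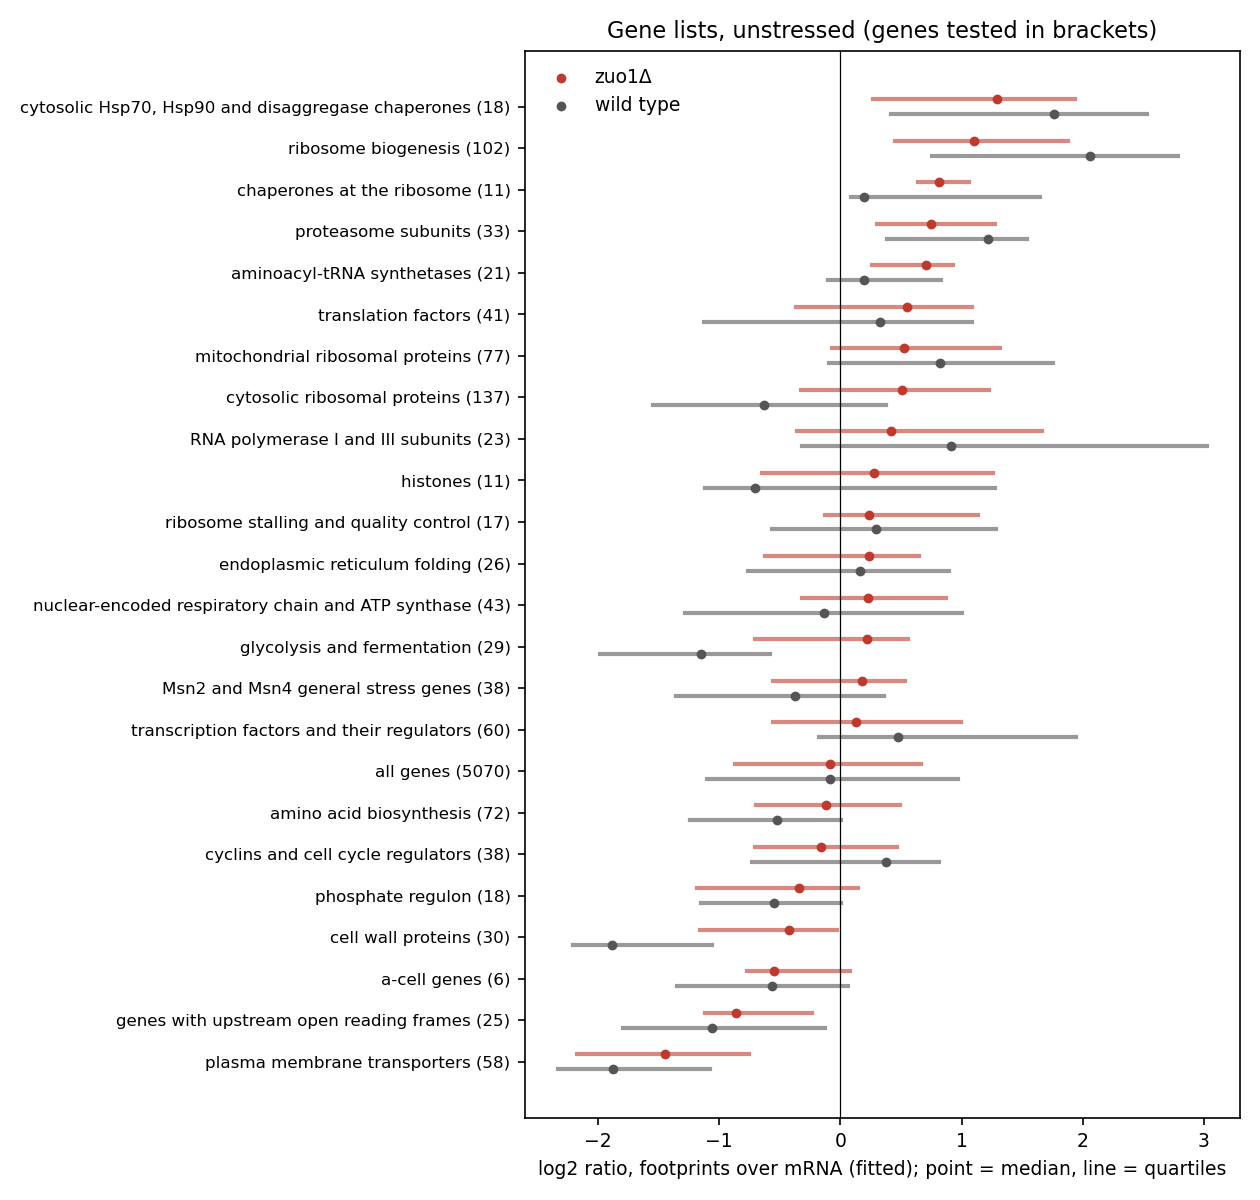
Median (point) and quartiles (line) of the fitted log2 ratio of footprints over mRNA for each gene list with at least 5 genes tested, in unstressed zuo1Δ (upper, red) and wild type (lower, grey). Ribosome biogenesis has a median of 1.10 in zuo1Δ and 2.06 in wild type, plasma membrane transporters -1.45 and -1.88, and cytosolic ribosomal proteins 0.51 and -0.63.

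Genes for plasma membrane transporters lay on the mRNA side. Of 58 tested, 34 (58.6%) were lower in footprints and 1 was higher, with a median fitted ratio of -1.45. The higher one was CTR1, the copper transporter gene, at 1.14 ± 0.34 (adjusted p = 0.0107, edgeR). The ammonium transporter gene MEP3 had 25.0 and 13.6 CPM in footprints and 311 and 96.7 CPM in mRNA, and the sodium pump gene ENA5 had 5.73 and 3.24 CPM against 80.1 and 33.5 CPM. PMA2, the minor proton pump, had 1.91 and 4.78 CPM in footprints and 74.8 and 26.0 CPM in mRNA. In mRNA these genes stood higher in replicate 1, by a median of 1.26 on the log2 scale over the list, and in footprints the replicates differed by -0.04. The lower count was 17 without mRNA replicate 1 and 22 without footprint replicate 1, and CTR1 was lost without mRNA replicate 1 or footprint replicate 2. The median was -0.51 without mRNA replicate 1 and -1.93 without mRNA replicate 2. The list also holds FZF1, a regulator of sulfite export and not a transporter.

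Cell wall proteins were also higher in mRNA replicate 1, by a median of 1.54 on the log2 scale, and their count moved with every library left out. Of 30 tested, 6 were lower in footprints and 0 higher, which became 1 without mRNA replicate 1, 11 without mRNA replicate 2, 2 without footprint replicate 1 and 3 without footprint replicate 2. With all libraries the 6 were 20% of the list, below the background of 24.3% lower. The median of -0.43 turned to 0.15 without mRNA replicate 1. YPS1, a cell surface protease gene, had 202 and 184 CPM in footprints and 941 and 298 CPM in mRNA. Of 18 phosphate regulon genes 6 were lower and 0 higher, among them the polyphosphate synthesis gene VTC1 at 193 and 189 CPM in footprints and 754 and 309 CPM in mRNA. Glycolysis and fermentation counted 4 higher (13.8%) and 3 lower (10.3%) of 29, below the background in each direction with all libraries. The lower count was 1 without mRNA replicate 1 and 5 without mRNA replicate 2, and its median of 0.22 ran from -0.22 to 0.74 with each library left out. Its pyruvate kinase gene CDC19 had 22724 and 22035 CPM in footprints and 3122 and 5045 CPM in mRNA. Amino acid biosynthesis counted 9 higher (12.5%) and 14 lower (19.4%) of 72, below the background in each direction, and with each library left out the higher count ran from 5 to 8 and the lower count from 9 to 19.

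Upstream reading frames catch scanning ribosomes before they reach the start codon. Of 25 yeast genes with such frames reported, 11 (44%) were lower in footprints in zuo1Δ and 2 were higher, with a median fitted ratio of -0.86. Without either footprint library the lower count was 7. Below GCN4 in size came WSC3, a cell wall sensor gene, at -3.01 ± 0.50 (adjusted p = 0.000126), PET111, an activator of mitochondrial translation, at -2.97 ± 0.55 (adjusted p = 0.000314), and the G1 cyclin gene CLN3 at -2.33 ± 0.40 (adjusted p = 0.00017, all edgeR). CPA1, whose upstream peptide stalls ribosomes when arginine is ample, had 43.6 and 67.1 CPM in footprints and 142 and 88.0 CPM in mRNA. Its fitted ratio of -1.06 ± 0.46 did not pass (adjusted p = 0.0665, edgeR). The 2 higher genes were RPC11 at 1.63 and CBS1 at 1.85. YAP1 and HAP4 lay at 0.01 and -0.07, so the reported frames did not go with a low ratio in every gene.

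**Figure D4:**
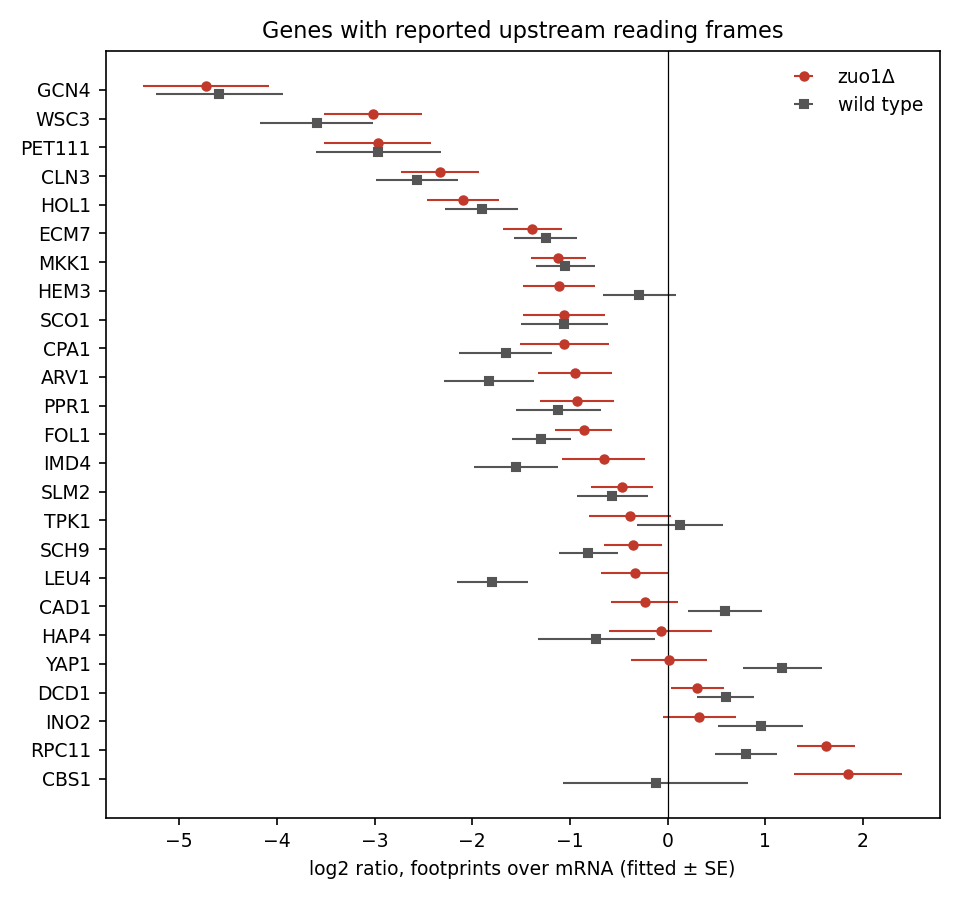
Fitted log2 ratio ± SE of footprints over mRNA for the 25 genes with reported upstream reading frames, in unstressed zuo1Δ (upper, circles) and wild type (lower, squares). GCN4 is lowest in both genotypes, at -4.72 in zuo1Δ and -4.59 in wild type, and CBS1 is highest in zuo1Δ at 1.85.

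The genes with extreme ratios in zuo1Δ leaned the same way in wild type, where they could be counted. All 15 of the highest genes were higher in wild-type footprints, where the background was 28.4% of genes higher and 29.4% lower, and all 7 of the lowest genes that wild type also counted were lower there. These calls stood in each of the 12 alternative settings run. Of the 100 highest genes 98 were higher in wild type and 0 lower, and of the 78 of the 100 lowest above 0 in wild type 71 were lower and 0 higher. Among the 15 highest, 13 were also in the wild-type 100 highest, while RPL28 ranked 360 and STE18 ranked 233 there. The 100 extremes of each side shared 58 genes with the wild-type 100 highest (58% of each list) and 49 with the wild-type 100 lowest (49% of each list). A list of 100 was 2.12% of all 4709 ranked genes. The 22 of the 100 lowest at 0 in wild type had no rank there and could not be shared. Over 4678 genes the ratios of the genotypes had a Spearman correlation of 0.84, and the libraries behind them share no sample. With TMM factors the wild-type calls were 1442 higher and 1492 lower. With library size as the only scaling they were 2400 higher and 383 lower, and the median of all genes was 0.98.

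**Figure D5:**
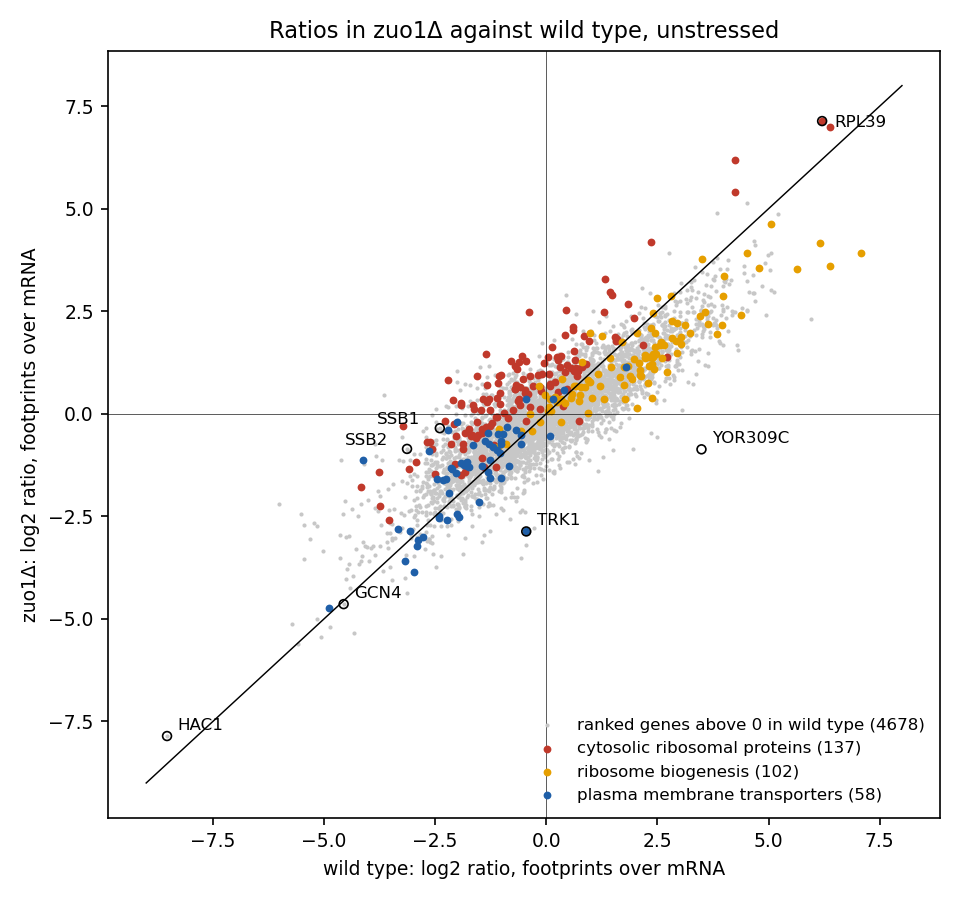
Log2 ratio of footprints over mRNA in zuo1Δ (vertical) against wild type (horizontal) for 4678 ranked genes above 0 in wild type and for YOR309C, which was below the minimum of 10 CPM, with 3 gene lists coloured. The line marks equal ratios. HAC1 and RPL39 lie at the ends near the line, most ribosomal protein genes above it, and TRK1 and YOR309C below it.

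The test of the difference itself, zuo1Δ minus wild type, called 0 genes higher (0%) and 2 lower (0.0394%), with 319 and 583 at an unadjusted p under 0.05 in edgeR. DESeq2 called 133 genes and limma-voom 0. TRK1 (YJL129C, chromosome X, 173599 to 177306), the main potassium transporter, had 19.9 and 24.7 CPM in zuo1Δ footprints and 141 and 187 CPM in zuo1Δ mRNA, against 34.8 and 31.9 CPM in wild-type footprints and 51.5 and 40.3 CPM in wild-type mRNA. Its mRNA was thus higher in zuo1Δ while its footprints were lower, and the ratio differed by -2.42 ± 0.38 (adjusted p = 0.02, edgeR). YOR309C, which the gene table does not list, had 2.62 and 2.77 CPM in zuo1Δ footprints and 3.24 and 7.44 CPM in zuo1Δ mRNA, against 16.8 and 46.3 CPM in wild-type footprints and 2.46 and 2.50 CPM in wild-type mRNA. Its ratio differed by -4.67 ± 0.77 (adjusted p = 0.02, edgeR). The zuo1Δ footprint values of YOR309C rest on 37 and 18 counts. Without coordinates its overlap with other genes was not checked, so it is uncertain. With each library left out in turn the difference ranged from -2.62 to -2.20 for TRK1 and from -5.22 to -3.75 for YOR309C, while the adjusted p often crossed the threshold. Neither call stood without zuo1Δ mRNA replicate 2, zuo1Δ footprint replicate 1 or 2, wild-type mRNA replicate 2 or wild-type footprint replicate 2, TRK1 was also lost without wild-type footprint replicate 1, and YOR309C without wild-type mRNA replicate 1. Without 3 stressed zuo1Δ libraries doubted in earlier results of these data (H2O2 mRNA replicate 2, 37 °C mRNA replicate 1 and H2O2 footprint replicate 1), the adjusted p was 0.051 for both (edgeR).

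Side by side, the lists gave these medians. Cytosolic ribosomal proteins had a median fitted ratio of 0.51 in zuo1Δ and -0.63 in wild type, with 132 of 137 single differences positive and 0 called. Over all genes tested, 2361 of 5070 differences were positive. These signs hold under TMM factors and depend on the scaling. Relative to the median of all genes the ribosomal protein list differed by 1.14. Scaling shifts all genes nearly alike, so this relative value was bound to stay, at 1.14, with library size alone. With that scaling the list's own difference was -0.02, that of all genes -1.16 and its wild-type median 0.44. The list took 13.4% and 13.4% of the zuo1Δ footprint counts and 10.2% and 9.94% of the zuo1Δ mRNA counts, against 14.8% and 15.1% of the footprints and 14.3% and 14.2% of the mRNA in wild type. Ribosome biogenesis genes had 1.10 in zuo1Δ and 2.06 in wild type. Cell wall proteins had -0.43 in zuo1Δ and -1.89 in wild type, and glycolysis genes 0.22 in zuo1Δ and -1.15 in wild type, the wild-type value being 0.0036 with library size alone. SSB1 had a fitted ratio of -0.41 in zuo1Δ and -2.40 in wild type, and SSB2 -0.88 and -3.14, with differences of 2.00 ± 0.59 and 2.25 ± 0.57 that did not pass (adjusted p = 0.143 and 0.134, edgeR). The share of the 50 highest genes in the mRNA also differed between the genotypes, as given above, and its part in these medians was not tested.

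The stressed zuo1Δ libraries were set beside the unstressed ones for the 30 extreme genes. After H2O2 the 15 highest had a median ratio of 4.62 and the 15 lowest -4.59, and at 37 °C 3.99 and -4.50. All 30 kept their sign in both conditions. Without the 3 doubted libraries the medians were 4.36 and -4.03 after H2O2, from 1 library per assay, and 3.34 and -4.49 at 37 °C. In these remaining libraries HAC1 had -6.07 after H2O2 and -6.29 at 37 °C, against -7.86 unstressed, and GCN4 -2.12 and -3.49, against -4.64 unstressed. RPL43A had 8.11 after H2O2 and 7.84 at 37 °C, against 6.995 unstressed. These differences between conditions were not tested.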

How the data were processed

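The deposited table gives the authors' raw read counts per gene for 24 libraries. The submitters' processing notes name cutadapt, Bowtie2, HISAT2, SAMtools and the build R64, without versions or roles. How reads were counted, on which annotation and with or without strand, is not given in the sources used here. Near-identical, overlapping and antisense genes may therefore share reads. Symbols, spans and coordinates come from the RefSeq table of R64, which matched 5198 of 5211 IDs. Per the labels, mRNA came from poly(A) selection and footprints from cells lysed with cycloheximide.

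The tools were edgeR 4.0.16 (quasi-likelihood test), limma 3.58.1 and DESeq2 1.42.0 under R 4.3.3. All 24 libraries were fitted as 12 groups with TMM factors and filterByExpr (minimum count 10, minimum total 15), which removed none of the 5070 genes above 0 in both genotypes. Of the other genes, 87 were at 0 in all wild-type libraries and 54 in all zuo1Δ libraries. The biological coefficient of variation was 0.265 with 12 residual degrees of freedom, and p-values were adjusted by Benjamini-Hochberg. The SE is the absolute fitted log2 ratio over the root of F. For genes named by rank the ratio of the libraries is given, and for lists the fitted one. The test was checked on simulated counts in which few genes changed, in the zuo1Δ footprints alone. Many genes were called in these data, so the check does not cover their setting.

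The text names the 15 highest and 15 lowest ratios, up to 4 members per list by size among those that passed, genes that passed in the difference, and GCN4, HAC1, CPA1, ZUO1, SSZ1, SSB1 and SSB2. Other genes were named after their values were seen. For list members named in either way, the zuo1Δ p-value tests the same ratio that picked them. The members and 25 lists were chosen with earlier results of these data known. Sequence and protein features were not analysed here.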

Additional observations from a re-analysis of the deposited data

Results flagged for a closer look

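The ratio of footprints over mRNA differed between zuo1Δ and wild type by a test of the difference for 2 genes. TRK1 differed by -2.42 ± 0.38 and YOR309C by -4.67 ± 0.77 on the log2 scale, both at an adjusted p of 0.02 in edgeR. For both genes the 2 zuo1Δ mRNA values were above the 2 zuo1Δ footprint values. YOR309C is uncertain, with 37 and 18 zuo1Δ footprint counts and its overlap with other genes not checked. Over the alternatives run, the adjusted p of TRK1 ranged from 1.97e-05 to 0.225 and that of YOR309C from 2.17e-06 to 0.389.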

How the results depend on the processing

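Calls of footprints over mRNA in zuo1Δ numbered 2289, ranged from 1560 to 2443 with each library left out, and were 1255 with only the groups compared. In wild type they numbered 2934 and ranged from 2263 to 2801 with each library left out. For the genotype difference, 2 calls became 826 with library size alone (8 higher, 818 lower, median of all genes -1.16), 133 with DESeq2, 0 with limma-voom, 0 with only the groups compared and 0 without the 3 doubted stressed libraries. With each library left out the count ranged from 0 to 399, with 399 reached without zuo1Δ mRNA replicate 1. RLE factors and no low-count filter left each count within 1.5 times, as did the other settings not named here. Replicate numbers were not taken as pairing, as not every culture had a correlation of same-numbered mRNA and footprint deviations over 0.1. It was 0.189 in unstressed zuo1Δ, 0.152 in unstressed wild type and -0.237 to 0.188 in stressed cultures. A replicate block gave 2274, 2921 and 2 calls. No named ratio that had passed changed sign. Of 25 list medians of fitted ratios, 10 changed sign with a library left out and 0 under the other settings. The changes include glycolysis (-0.22 without footprint replicate 1), histones (-0.23 without mRNA replicate 2), the respiratory chain (-0.14 without footprint replicate 1) and cell wall proteins (0.15 without mRNA replicate 1). Of 952 alternative values of 119 named ratios, 940 moved by less than the spread between replicates, and the other 12 were under 1 CPM added. With 2 libraries per assay, leaving 1 out cannot move a named ratio by more than this spread. The values with a library left out were therefore bound to stay within it and do not show stability. Of 150 alternative list medians, 135 moved by less than the spread between replicates. The 30 extreme genes shared 21 to 27 members with each alternative ranking and 18 under a minimum of 30 CPM. Having 2 libraries per assay and few footprint reads in the lowest genes limits the precision.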

Other observations

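The 31 ranked genes listed at 0 in all 12 wild-type libraries all had more mRNA than footprints in zuo1Δ, with ratios from -7.42 to -0.31 and a median of -4.18. In the zuo1Δ H2O2 libraries all 31 ratios were negative, and at 37 °C 28 of 31. Their median was 28.6 CPM per kb in zuo1Δ mRNA and 1.38 CPM per kb in zuo1Δ footprints. The unstressed wild-type footprint libraries held 1686930 and 1788399 counts, against 12911338 and 5848548 in zuo1Δ. Whether a filter by genotype set these genes to 0 was not tested. Such a filter could take out genes with few footprint reads, so their low ratios are no independent observation. TEF1 and TEF2, the near-identical genes of elongation factor 1 alpha, did not pass in zuo1Δ. Their fitted ratios there were -1.22 ± 0.52 and -1.13 ± 0.54 (adjusted p = 0.0627 and 0.0946, edgeR), against -4.11 and -4.62 in wild type. The test of the difference called neither gene, and differences between genotypes depend on the scaling. Over the Msn2 and Msn4 stress genes replicate 1 was above replicate 2 by a median of 0.97 in zuo1Δ footprints and 1.26 in zuo1Δ mRNA on the log2 scale.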
